A study of Mus musculus with 474 samples.

Results

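The genes described here are 9 genes of MHC class I antigen presentation: the heavy chain genes H2-K1, H2-D1, H2-T10, H2-T22 and H2-T23, the light chain gene B2m, the peptide transporter genes Tap1 and Tap2, and Tapbp, which encodes tapasin. They were listed by gene symbol and role, with earlier results of these data known, and make up 9 of the 20612 genes in the deposited table. The samples were skeletal muscle (gastrocnemius) from Diversity Outbred (DO) mice, an outbred stock bred from 8 inbred founder strains, so that each animal has its own mosaic of founder genomes. Every animal ate the same high-fat, high-sugar diet, with no animal on another diet, and gave 1 library. The animals fell into 5 numbered sets (17, 18, 19, 21 and 23), with 48, 45, 49, 46 and 47 females and 46, 48, 50, 47 and 48 males. These numbers are read here as generations of outbreeding, since not every one of them is explained in the study's methods. The comparisons ask how widely these genes varied between outbred animals, which of them varied together, and whether their levels differed between the sexes or generations.

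Class I molecules carry short peptides from inside the cell to its surface, where CD8 T cells and natural killer cells read them. A heavy chain pairs with beta-2-microglobulin in the endoplasmic reticulum, TAP1 and TAP2 form the pump that brings in peptides, and tapasin holds the empty heavy chain next to the pump until a peptide binds. The heavy chain genes lie in the H-2 complex and are among the most variable genes between mouse strains, muscle fibres are known for low class I levels at rest, and interferons raise class I transcription through factors that include IRF1 and NLRC5.

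All members but one lie on chromosome 17 (GRCm38, positions as deposited): Tapbp at chr17:33915899-33929292, H2-K1 at chr17:33996017-34000347, Tap1 at chr17:34187553-34197225, Tap2 at chr17:34203527-34216321, H2-D1 at chr17:35262730-35267499, H2-T23 at chr17:36029773-36032855, H2-T22 at chr17:36037128-36042747 and H2-T10 at chr17:36115876-36121465. B2m lies apart from them at chr2:122147686-122153083. RefSeq promoters (GRCm38.p6) were given for 7 of the 9 members, and the 200 bases before each start site were searched on both strands for 4 strings of letters, which were chosen after these sequences had been viewed: GAANNGAAA and GAAA followed after any 2 bases by GAAA (letters of an interferon-stimulated response element, ISRE), GGG followed after any 2 bases by TT, any base and CC (NF-kB type), and TGACGC (from the site alpha of class I promoters). The window before H2-K1 (chr17:34000348-34000547, minus strand, upstream of the gene and outside every annotated exon) is shown because it holds 3 of the 4, with the matches in capitals.
H2-K1, 200 bases before the start: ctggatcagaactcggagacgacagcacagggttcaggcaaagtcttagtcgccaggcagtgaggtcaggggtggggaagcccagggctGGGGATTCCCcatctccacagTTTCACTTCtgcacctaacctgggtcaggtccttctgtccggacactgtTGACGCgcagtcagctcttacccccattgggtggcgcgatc

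The stretch of 30 bases that opens with the first match is set out below for the 5 members with any ISRE match, to compare the letters of genes whose levels are compared further on; capitals again mark matches. The H2-K1, H2-T22 and B2m stretches lie upstream of the genes, and those of H2-D1 and H2-T23 lie inside annotated GENCODE exons of the same genes.
H2-K1 (chr17:34000429-34000458, minus strand): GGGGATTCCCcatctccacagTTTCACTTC
H2-D1 (chr17:35262923-35262952, plus strand): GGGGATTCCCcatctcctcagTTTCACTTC
H2-T22 (chr17:36042904-36042933, minus strand): TTTCACTTTCgaatccccaacttctcttga
H2-T23 (chr17:36032796-36032825, minus strand): TTTCTCTTTCataaagacacaaatgatgca
B2m (chr2:122147548-122147577, plus strand): GAAACTGAAAatgGGAAAGTCCCtttgtaa

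H2-K1 and H2-D1 held the same 3 matches in the same order, B2m held an ISRE and an NF-kB match in the opposite orientation, and H2-T22 and H2-T23 held the ISRE letters alone. Over 27025 promoters of the same length, GAANNGAAA was found in 5%, the ISRE form with both GAAA in 2.33%, the NF-kB type in 3.3% and TGACGC in 5.42%. No match to these letters was found in the windows of Tap1 and Tapbp. A match is a description of letters and shows no binding.

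Library totals ran from 35.9 to 165.72 mega-counts with a median of 79.3 mega-counts, and levels are given in CPM (counts-per-million), scaled with TMM factors. Skeletal muscle fibre markers summed to a median of 139001 CPM in females and 140541 CPM in males, so the muscle label held, and all 9 members passed the filter on low counts that left 18823 genes. In 5 libraries (3 labelled female, 2 labelled male) either Xist or Ddx3y went against the sex label, and in none did both. Of these 5, DO048 (female) and DO308 (male) had names that stand in each other's place in the column order of the deposited tables, compared with the sample list, as do DO309 and DO310, and the column names were taken as they stand. Of the results below, no count of members changed by more than 1.5 times without them.

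Per kilobase of merged exon, B2m stood highest with a median of 57.1 CPM per kb, followed by H2-D1 (16.2), H2-K1 (9.06), Tapbp (5.92), H2-T23 (2.58), H2-T22 (2.52), H2-T10 (1.75), Tap2 (1.47) and Tap1 (0.330). B2m was above H2-D1 in 100% of animals, Tapbp above H2-T23 in 99.6% and Tap2 above Tap1 in 99.8%. H2-D1 was above H2-K1 in 95.1% of animals and H2-K1 above Tapbp in 89.5%. The middle of the order was not resolved, since H2-T23 was above H2-T22 in 57.4% of animals, H2-T22 above H2-T10 in 63.7% and H2-T10 above Tap2 in 50.4%. Between the lowest and the highest member the medians per kilobase thus ran from the transporter subunit Tap1 to the light chain that every heavy chain shares.

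**Figure D1:**
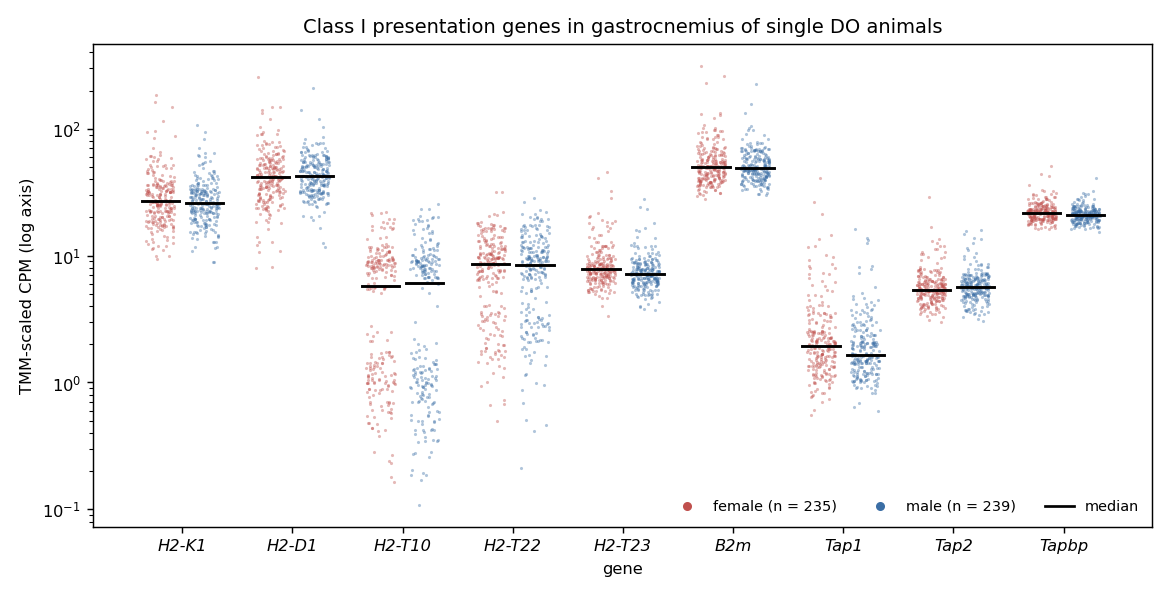
TMM-scaled CPM (log axis) of each member in every animal, females and males side by side, with a black bar at the median. The sexes overlap for all 9 genes, H2-T10 shows a lower and an upper band in both sexes, and Tap1 reaches from 0.551 to 41.1 CPM.

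H2-K1 and H2-D1 encode the classical heavy chains that present peptides to CD8 T cells. H2-K1 ran from 9.46 to 184 CPM in females with a median of 26.8, and from 8.87 to 107 CPM in males with a median of 25.9. H2-D1 ran from 7.99 to 254.30 CPM in females with a median of 41.7, and from 11.8 to 211 CPM in males with a median of 42.2. For both genes the sexes overlapped, and the highest animal of each was a female. Over all animals, the 95th percentile was 4.27 times the 5th for H2-K1 and 3.53 times for H2-D1.

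H2-T23 encodes Qa-1, the nonclassical heavy chain seen by NKG2A receptors of natural killer cells, while H2-T10 and H2-T22 encode closely related nonclassical chains that some gamma-delta T cells recognise. H2-T23 ran from 3.37 to 45.7 CPM in females (median 7.82) and from 3.71 to 28.1 CPM in males (median 7.13). H2-T10 ran from 0.164 to 22.2 CPM in females (median 5.81) and from 0.108 to 25.5 CPM in males (median 6.08). H2-T22 ran from 0.495 to 32.0 CPM in females (median 8.63) and from 0.213 to 28.2 CPM in males (median 8.45). The 95th percentile was 42.5 times the 5th for H2-T10 and 12.0 times for H2-T22, against 2.99 times for H2-T23. Of all members, H2-T10 therefore covered the widest range between animals that ate the same diet.

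B2m, the light chain, ran from 28.1 to 312.82 CPM in females (median 49.6) and from 30.2 to 224.70 CPM in males (median 48.7). Tap1 ran from 0.551 to 41.1 CPM in females (median 1.94) and from 0.596 to 16.2 CPM in males (median 1.65). Tap2 ran from 3.02 to 28.9 CPM in females (median 5.39) and from 3.03 to 15.8 CPM in males (median 5.68). The 2 subunits of one pump thus differed in spread, with a 95th percentile 7.72 times the 5th for Tap1 and 2.61 times for Tap2. Tapbp, which encodes tapasin, was the narrowest member, running from 16.2 to 51.3 CPM in females (median 21.8) and from 15.4 to 40.7 CPM in males (median 20.9), and its 95th percentile was 1.62 times its 5th.

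Spread was then measured on the deposited variance-stabilised (VST) scores, which are on a log2-like scale, as the SD of the residuals after sex and generation. The residual SD was 1.18 for H2-T10, 0.868 for H2-T22, 0.596 for H2-K1, 0.580 for H2-D1, 0.572 for Tap1, 0.450 for B2m, 0.399 for H2-T23, 0.328 for Tap2 and 0.202 for Tapbp. Among the 18823 genes tested these values stood at percentile 99.3 for H2-T10, at 98.6 for H2-T22 and between 90.0 and 96.3 for the classical heavy chains, B2m, Tap1 and H2-T23. Tap2 stood at percentile 84.0 and Tapbp at 48.9, near the middle of all genes. Against the 500 genes nearest in mean level the percentiles ran from 62.2 for Tapbp to 99.2 for H2-T10. The block of 96 consecutive library numbers took up between 0.186% (Tap1) and 6.36% (Tapbp) of the residual variance. These scores are described as made after regression of batch, so the shares cannot tell how much technical grouping took up before it.

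The shapes fell into 3 kinds. Tap1, H2-T23, Tap2, B2m and Tapbp had a long upper tail, with skewness of 2.04, 1.77, 1.52, 1.52 and 1.23. H2-K1 had a shorter upper tail (skewness 0.718) and H2-D1 was close to symmetric (0.129), with 2 animals above 3 residual SDs and 3 animals below -3, the members' sole values on that side. H2-T10 and H2-T22 had no animal beyond 3 residual SDs on either side and H2-T10 had an excess kurtosis of -1.49.

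**Figure D2:**
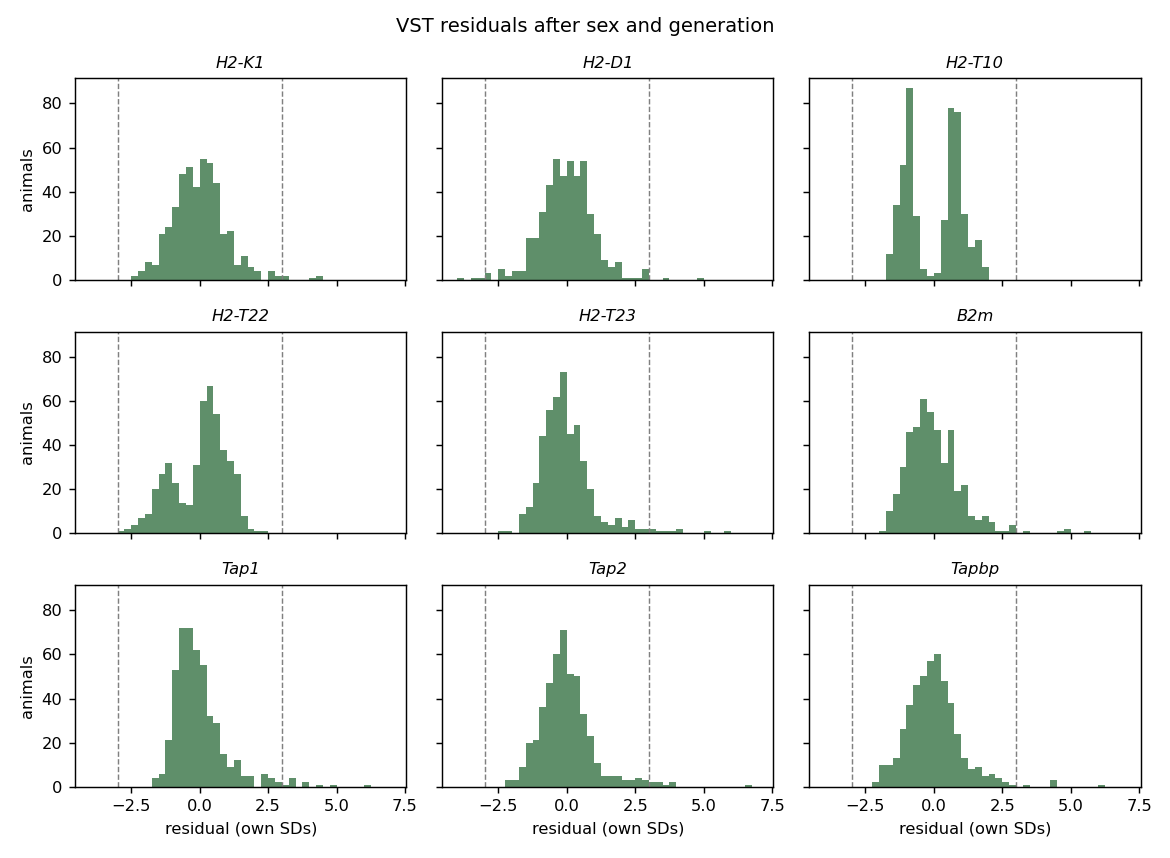
Histograms of the VST residuals of each member after sex and generation, in units of that gene's own residual SD (x axis) against the number of animals (y axis), with dashed lines at 3 and -3. H2-T10 has a trough near the middle of its range, H2-T22 has a lower shoulder, and Tap1, H2-T23, B2m, Tap2 and Tapbp have tails to the right.

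The upper tails were largely filled by the same animals. Among the 7 members other than H2-T10 and H2-T22, 14 animals lay above 3 residual SDs for at least 1 gene, 10 for at least 2, 6 for at least 4, and 1 animal for all 7. That animal, DO191 (female, generation 18), had the highest level of H2-D1 (254.30 CPM), H2-T23 (45.7 CPM), Tap1 (41.1 CPM), Tap2 (28.9 CPM) and Tapbp (51.3 CPM). DO326 (female, generation 21) had the highest level of B2m (312.82 CPM) and H2-K1 (184 CPM), with a Tap1 level of 26.4 CPM. For Tap1, 10 animals (6 females, 4 males) lay above 3 residual SDs, with 11.9 to 41.1 CPM.

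T and NK cell and macrophage markers were above the median in most of these 10 animals, and B cell markers were not. Their summed T and NK cell markers ran from 0.461 CPM (DO337, female, generation 21, with 21.3 CPM of Tap1) to 116 CPM (DO191), and 8 of the 10 lay above the medians of both sexes (0.671 CPM in females and 0.559 CPM in males). DO191 and DO345 (67.4 CPM) had the highest sums of all animals, DO326 had 3.44 CPM, and DO337 and DO370 (0.492 CPM) lay below both medians. The summed B cell markers lay above the median of the animal's own sex in 5 of the 10 and below it in 5, from 4.42 CPM (DO326) to 562.02 CPM (DO191). The summed macrophage markers lay above it in 9 of the 10. The part of these cells in the Tap1 levels was not tested. In bulk muscle, more cells of a type and more RNA per cell cannot be told apart.

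H2-T10 showed a gap in the middle of its distribution, 0.373 VST units (0.315 residual SDs) wide, with 41 to 48 animals of each generation below it. The gap was no wider in residual SDs than the widest gaps of H2-K1 (0.355), Tap1 (0.369) and B2m (0.417), but the widest gap of each other member left at most 22 animals on one side. A Gaussian mixture of 3 residual bodies fitted H2-T10 best (BIC -1088, against -1135 for 2 bodies and -1512 for 1, where higher is better). For the other members 2 bodies fitted best, nearly tied with 3 for H2-T22 (-1142.7 and -1143.8) and Tap1 (-633.4 and -635.1). With 2 bodies, the means stood 5.64 body SDs apart for H2-T10 and 3.44 for H2-T22, with 28.4% in the lower body of H2-T22. For the rest they stood 0.0133 (H2-D1) to 1.62 (Tap1) apart. Both sexes and all generations were on both sides of the H2-T10 gap. By generation 41 of 94 animals (generation 17), 43 of 93 (18), 48 of 99 (19), 46 of 93 (21) and 43 of 95 (23) lay below the gap, between 43.6% and 49.5%. The H2-T10 medians of the 10 sex-by-generation groups ran from 1.2549 CPM (47 males of generation 21) to 8.18 CPM (47 females of generation 23). That was a range of 6.52 times, against 1.13 to 1.58 times for the other 8 members. Whether the gap set this range was not tested.

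H2-T10 and H2-T22 took complementary parts of a narrower sum. Their summed level ran from 2.71 to 53.6 CPM with a median of 14.1, and the SD of its residuals on a log2(CPM + 0.1) scale was 0.587, against 1.76 for H2-T10 alone and 1.15 for H2-T22 alone. The percentage of the sum assigned to H2-T10 ran from 0.712% to 99.0%. It was under 10% in 150 animals, between 40% and 50% in 71, between 50% and 60% in 52, and above 90% in 34, with 14 animals between 30% and 40% and 13 between 60% and 70%. The remaining steps of 10% held 48 animals (10% to 20%), 19 (20% to 30%), 46 (70% to 80%) and 27 (80% to 90%), so the fewest stood between 20% and 40% and between 60% and 70%.

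**Figure D3:**
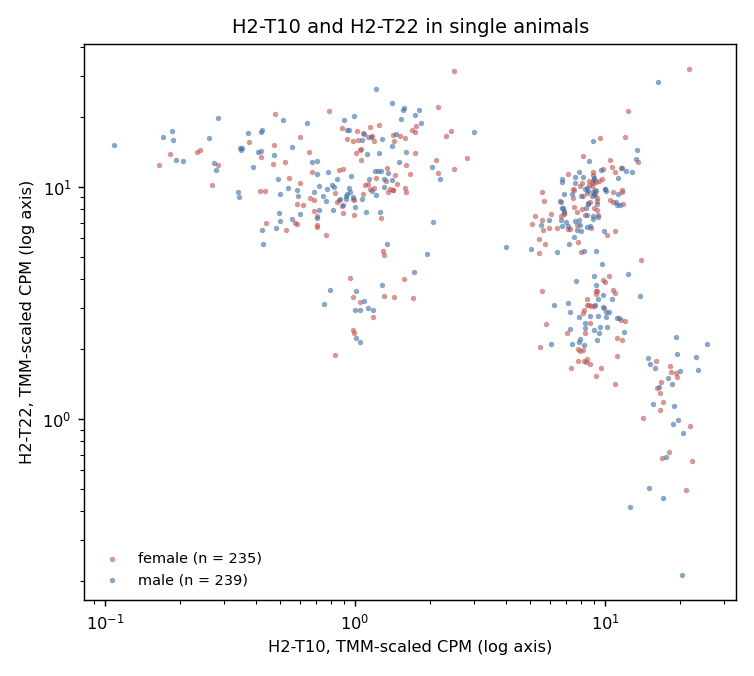
H2-T10 (x axis) against H2-T22 (y axis), both in TMM-scaled CPM on log axes, with 1 point per animal coloured by sex. Animals stand in separate patches, with high H2-T22 where H2-T10 is lowest, mostly low H2-T22 where H2-T10 is highest, and both sexes in every patch.

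The 2 genes resemble each other in sequence. Of all 100-base windows of annotated H2-T10 transcripts, 7.06% also occurred in another gene, and 8.86% of those of H2-T22, against 3.59% for H2-D1, 3.15% for H2-T23, 0.957% for H2-K1 and none for B2m, Tap1 and Tap2, so the levels of H2-T10 and H2-T22 can depend on how the counting divided shared reads. Of the genes in the deposited table, H2-T10 also overlaps BC023719, H2-T22 and H2-T23 overlap A930015D03Rik, and Tap1 overlaps Psmb9. Tap2 overlaps Gm15821 and Gm20496, and Tapbp overlaps Zbtb22 and Gm19412. Whether counting used strand is not given in the sources used here, so reads of overlapping genes cannot be told apart.

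The pairs were compared by the correlation of VST residuals over all animals of both sexes, with 100000 permutations per pair (2-sided), for which 1e-05 is the smallest p they can give, and Benjamini-Hochberg adjustment over 36 pairs. The 7 members other than H2-T10 and H2-T22 rose and fell together: their 21 pairs had r from 0.63 (B2m and Tapbp, Spearman's rho 0.47, r without the 2 farthest animals 0.59) to 0.86 (H2-T23 and Tap1, rho 0.70, r without the 2 farthest animals 0.83), each with an adjusted permutation p of 1.5e-05 for r and 1.44e-05 for rho. H2-K1 and B2m, a heavy chain and its partner, had r = 0.81 (rho 0.74, 0.79 without the 2 farthest), and H2-K1 and H2-D1 had r = 0.65 (rho 0.62, 0.63 without the 2 farthest). The 2 transporter subunits Tap1 and Tap2 had r = 0.84 (rho 0.71, 0.82 without the 2 farthest), although they differ in spread. B2m, alone on chromosome 2, had r = 0.84 with Tap1 (rho 0.78, 0.83 without the 2 farthest), within the range of pairs that share chromosome 17.

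Within the 5 library blocks the 21 pairs kept r between 0.54 and 0.91. Within females r ran from 0.65 to 0.89 and within males from 0.52 to 0.81. Without the 10 animals far out for Tap1, r ran from 0.48 to 0.78, and with T, NK and B cell scores added to the adjustment from 0.49 to 0.77. In every one of these settings the lowest of the 21 pairs stayed positive.

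H2-T10 and H2-T22 stood apart from the other members. The gap of H2-T10 was narrower than the 0.5 residual SDs set for separate clusters, so correlations were taken over all animals. H2-T10 and H2-T22 had r = -0.56 (rho -0.51, -0.56 without the 2 farthest, adjusted permutation p = 1.5e-05), and within library blocks it ran from -0.65 to -0.47. With the other 7 members, H2-T10 had r from 0.063 (Tapbp, rho 0.046, 0.066 without the 2 farthest, adjusted permutation p = 0.183) to 0.25 (Tap2, rho 0.24, 0.25 without the 2 farthest, adjusted permutation p = 1.5e-05), and H2-T22 had r from 0.037 (H2-D1, rho 0.028, 0.018 without the 2 farthest, adjusted permutation p = 0.422) to 0.26 (H2-K1, rho 0.28, 0.24 without the 2 farthest, adjusted permutation p = 1.5e-05). H2-D1 and H2-T10 had r = 0.18 over all animals (rho 0.13, 0.17 without the 2 farthest, adjusted permutation p = 8.31e-05). The sum of H2-T10 and H2-T22 had larger r with the other 7 than either gene alone, a difference that was not tested. The scales also differ, since the sum was taken as log2(CPM + 0.1) and each gene alone as VST scores. For the sum r ran from 0.29 (Tapbp) to 0.41 (H2-K1), rho from 0.19 to 0.36 and r without the 2 farthest animals from 0.28 to 0.40, with an adjusted permutation p of 1e-05 for each r.

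**Figure D4:**
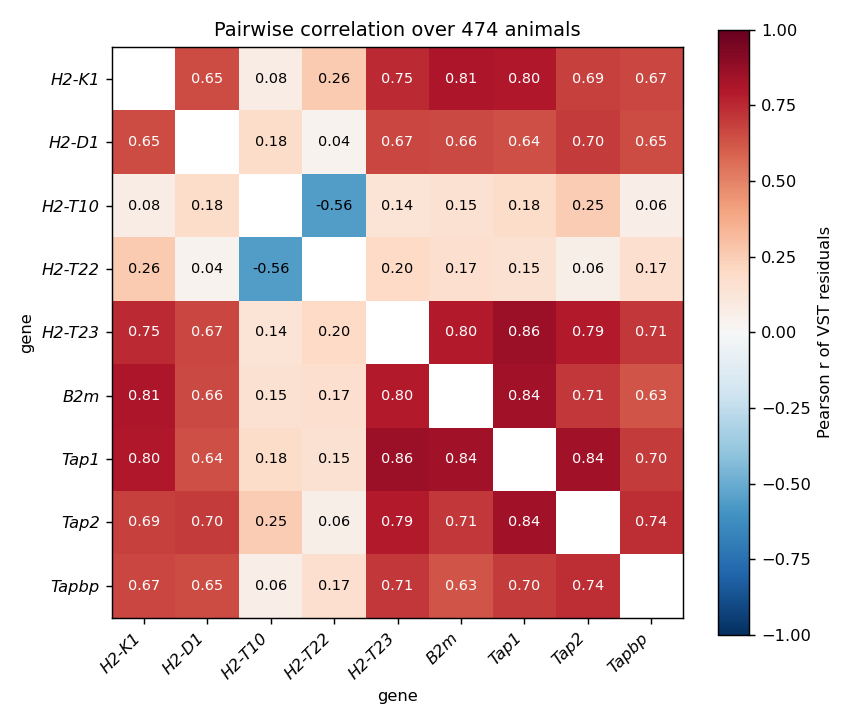
Pearson r of VST residuals (after sex and generation) for all 36 pairs of members over all animals, printed in each cell and coloured from -1 (blue) to 1 (red). The rows of H2-T10 and H2-T22 are pale but for their own pair at -0.56, and all other cells lie between 0.63 and 0.86.

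The genes most like each member, over the 18823 genes tested and with no test, were partly members and partly neighbours. Nlrc5, the transactivator of class I genes, was the gene most like Tap1 (r = 0.92) and most like B2m (r = 0.88), although it lies on chromosome 8. Psmb8, an immunoproteasome subunit gene next to the Tap genes, was most like Tap2 (r = 0.85) and Tapbp (r = 0.75), and second for Tap1 (0.91) and H2-T23 (0.86). Psmb9, which shares its start region with Tap1, was next for Tap1 (0.89), Tap2 (0.82) and H2-T23 (0.82). H2-Q4, another class I heavy chain gene, was second for H2-K1 (0.81) and B2m (0.85). H2-D1 was most like H2-Eb1, a class II gene (0.74), followed by Tap2 (0.70) and Psmb8 (0.70).

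H2-T10 was most like BC023719 (0.95), Gm6034 (0.86) and H2-T-ps (0.82), which all start close to it on chromosome 17 and of which BC023719 overlaps it. No gene was closely like H2-T22, whose highest were H2-Q10 (0.36), 4833427F10Rik (0.35) and Gnl1 (0.32), all on chromosome 17. Of the 25 genes most like each member, the number that started within 5 Mb on the same chromosome was 19 for H2-T10, 18 for H2-D1, 14 for H2-T22, 13 for H2-K1, 12 for Tap2, 10 for H2-T23, 9 for Tapbp, 8 for Tap1 and 0 for B2m. Between 0.712% and 1.28% of all genes tested lie that near a member, so apart from B2m the lists held more neighbours than that share.

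The known regulators and partners outside the member list followed the same division. Nlrc5 had r of 0.63 to 0.92 with the 7 co-varying members, and 0.17 with H2-T10 and 0.11 with H2-T22. For Irf1 the 7 values ran from 0.56 to 0.84, for Psmb8 from 0.70 to 0.91 and for Psmb9 from 0.63 to 0.89. Each of these values for Nlrc5, Irf1, Psmb8 and Psmb9 had an adjusted permutation p of 1.29e-05, with Spearman's rho from 0.44 to 0.84 and r without the 2 farthest animals from 0.52 to 0.91. For H2-T10 and H2-T22 the values with these 4 genes stayed between 0.082 and 0.19.

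Scores of cell type markers were set beside the members in the same way, with 81 member and list combinations. The T and NK cell score had r from 0.40 (H2-D1) to 0.63 (Tap1) with the 7 members, the macrophage score from 0.38 (H2-D1) to 0.52 (B2m), the B cell score from 0.34 to 0.55 and the adipocyte score from 0.31 to 0.46, each with an adjusted permutation p of 2.31e-05. Spearman's rho was lower for lymphocyte scores, from 0.28 to 0.45 for T and NK cells, whose r without the 2 farthest animals ran from 0.33 to 0.57. For B cells rho ran from 0.19 to 0.28, and r without the 2 farthest animals from 0.30 to 0.50. The muscle fibre score had r from -0.34 (B2m) to -0.21 (Tapbp), with the same adjusted permutation p. Within females this score had r from -0.44 to -0.31, and within males from -0.22 (B2m) to -0.043 (Tapbp). For the adipocyte score r ran from 0.42 to 0.55 within females and from 0.14 to 0.37 within males. The T and NK cell score had 0.45 to 0.70 within females and 0.28 to 0.47 within males, and the B cell score 0.39 to 0.63 and 0.22 to 0.38. For the macrophage score these were 0.335 to 0.54 and 0.325 to 0.50. For H2-T10 and H2-T22 over all animals of both sexes, r stayed between -0.12 and 0.15 with all 9 scores. Their rho did too but for H2-T22 with the T and NK cell score (rho 0.21, adjusted permutation p = 5.06e-05, against r = 0.084). Of the 8 measured T and NK cell markers, 5 had a median under 0.05 CPM, and Cd4 was the most abundant at 0.143 CPM. The part of these cells in the members' spread was not tested.

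Between the sexes, 4 of the 9 members were lower in males and none higher, by edgeR's quasi-likelihood test with Benjamini-Hochberg adjustment over all genes. Of all genes tested 55% differed between the sexes at the same adjusted p of 0.05, 30.6% lower in males and 24.4% higher, so the count of members is not a result about them. With total count scaling in place of TMM, 10799 genes were called and 3330 of them were higher in males, against 4595 of 10362 here. The sexes overlapped for each member, and the median member fell by 0.074 on the log2 scale in males, against 0.014 for the median of all genes tested.

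Tap1 had the largest difference, with a log2 value of -0.36 (SE 0.093, adjusted p = 2.97e-04), a fold of 0.777 in males. H2-T23 was lower by a log2 value of -0.21 (SE 0.047, adjusted p = 2.55e-05), H2-K1 by -0.14 (SE 0.061, adjusted p = 0.0423) and Tapbp by -0.074 (SE 0.021, adjusted p = 0.00109). The call of H2-K1 was lost with limma on the VST scores (adjusted p = 0.266), with the library block as covariate (0.0511) and without generation 17 (0.136), 21 (0.456) or 23 (0.0509). The call of Tapbp was lost without generation 21 (log2 -0.038, adjusted p = 0.126), where Tap1 came to -0.23 (adjusted p = 0.0370). B2m stood at -0.082 (SE 0.046, adjusted p = 0.124), H2-D1 at -0.0073 (SE 0.057), H2-T10 at -0.012 (SE 0.15), H2-T22 at -0.0021 (SE 0.096) and Tap2 at 0.017 (SE 0.041), none of which passed the test. Of these 5 the 95% interval was widest for H2-T10, from -0.30 to 0.28, and narrowest for Tap2, from -0.062 to 0.097. The medians of H2-K1 lay closer together (26.8 CPM in females and 25.9 CPM in males) than its means (31.8 CPM with an SD of 21.6, and 28.6 CPM with an SD of 13.1).

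**Figure D5:**
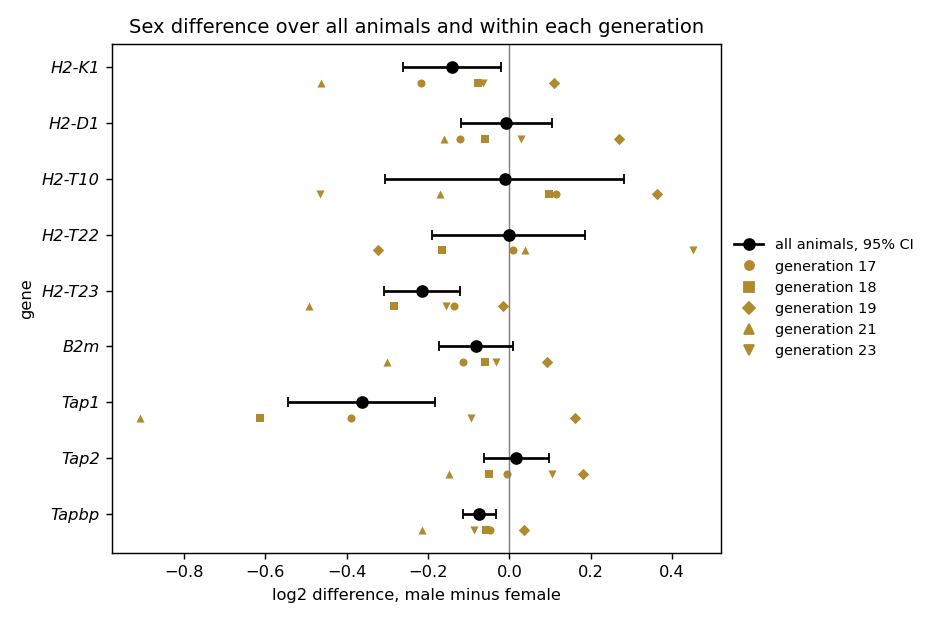
Log2 difference between males and females (male minus female) for each member over all animals (black, with the 95% confidence interval) and within each of the 5 generations (brown symbols). Tap1, H2-T23, H2-K1 and Tapbp lie to the left of 0, and the symbol for generation 21 lies farthest left for 7 of the 9 members.

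Markers of several cell types differed between the sexes along with these members, in both directions. Of the 10 endothelial markers 8 were higher in males and 1 lower (median log2 0.089), and of the 5 erythroid markers 3 were higher and none lower (median log2 0.21). Of the 7 adipocyte markers 6 were lower in males and 1, Lep, was higher (median log2 -0.54). All 7 slow fibre markers were lower in males (median log2 -0.51). Of the 7 fibroblast and fibro-adipogenic progenitor markers 4 were lower and 2 higher, and of the 9 muscle fibre markers 3 were lower and 4 higher. Of the 10 macrophage markers 2 were lower. These counts are to be read beside the 30.6% of all genes tested that were lower in males and the 24.4% that were higher. All 8 measured T and NK cell markers and 5 of the 6 B cell markers were lower in males, with median log2 differences of -1.71 and -1.83, and T and NK markers summed to between 0.0654 and 116 CPM in females (median 0.671) and between 0.134 and 46.2 CPM in males (median 0.559). The summed B cell markers went the other way in their medians, 43.5 CPM in females and 76.6 CPM in males, and Ighm, the most abundant of them, was the 1 marker called higher in males. The part of these cells in the sex differences was not tested. The T and NK cell score and the B cell score rest on markers that themselves differed between the sexes, so fits that hold them cannot test it. With both scores as covariates, a choice made after seeing the data, none of the 4 differences passed the test: Tap1 came to 0.0017 (adjusted p = 0.988), H2-T23 to -0.056 (adjusted p = 0.213), H2-K1 to 0.067 (adjusted p = 0.300) and Tapbp to -0.024 (adjusted p = 0.277). In that fit H2-D1 (log2 0.13, adjusted p = 0.0221) and Tap2 (log2 0.11, adjusted p = 0.00308) were higher in males, and 51.4% of all genes tested were called. With macrophage, endothelial, adipocyte, fibroblast and slow fibre scores as covariates, H2-T23 (-0.18) and Tapbp (-0.085) remained called and Tap1 (-0.20, adjusted p = 0.0667) and H2-K1 (-0.028, adjusted p = 0.749) did not. There 46.2% of all genes tested were called. Without the 10 animals far out for Tap1, H2-K1 (-0.074, adjusted p = 0.244) was no longer called.

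By generation, the sex differences of Tap1, H2-T23, H2-K1 and Tapbp were called in generation 21 (log2 -0.91, -0.49, -0.46 and -0.22) and those of Tap1 and H2-T23 also in generation 18 (-0.61 and -0.28), while none was called in generations 17 and 23. Of all genes tested, between 20.6% and 25.3% were called within a generation, with 24.8% in generation 21 and 23.4% in generation 18. In generation 19 H2-D1 was higher in males (log2 0.27, adjusted p = 0.0433), and H2-T23 and H2-T22 were the sole members with values below 0 there. H2-T23 was the one member with values below 0 in all 5 generations. Within the 5 library blocks between 0 and 2 of the 9 members were called, against 19.7% to 28.6% of all genes tested, and in block 2 Tap1 (0.12) and H2-K1 (0.096) had values above 0 that did not pass the test. The test of the difference itself, a sex by generation interaction, called 0 of the 9 members by edgeR, against 0.531% of all genes tested. DESeq2 also called 0 members, against 0.207% of all genes, and limma called 0 of all genes, so its count says nothing about the members. Under an unadjusted p of 0.05, edgeR and DESeq2 gave 4 members (Tap1, Tapbp, H2-T23 and H2-K1), against 5.97% and 6.15% of all genes, and limma gave 1 (Tapbp), against 4.62%. Without generation 21, 2 of the 9 members (Tap1 and H2-T23) differed between the sexes, against 50.9% of all genes tested.

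The spread of animals about their group median did not pass the test between the sexes for any member (limma on absolute deviations, 0 of 9, against 5.55% of all genes tested). The genes that passed as wider in females made up 3.8% of all genes tested. Under an unadjusted p of 0.05 there were 5 members, against 16.6% of all genes tested, and 11.8% of all genes tested were wider in females at that p. Those 5 (H2-D1, Tap1, B2m, H2-K1 and Tapbp) had larger mean deviations in females, none of which passed the adjusted test: the mean absolute deviation of Tap1 was 0.423 VST units in females and 0.325 in males (adjusted p = 0.158), and that of H2-D1 was 0.469 and 0.380 (adjusted p = 0.126). With deviations from the group mean, Tap1 passed the test (adjusted p = 0.0433), beside 8.26% of all genes tested. With log2 CPM in place of the VST scores 3 members (H2-D1, Tap1 and B2m) were under an unadjusted p of 0.05, beside 14.6% of all genes tested.

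Between generations 2 of the 9 members differed, H2-D1 and H2-T23, against 7.56% of all genes tested. H2-D1 had medians of 42.9 CPM in generation 17 (from 11.8 to 142), 37.7 in generation 18 (7.99 to 254.30), 38.6 in generation 19 (10.8 to 83.1), 42.5 in generation 21 (8.18 to 211) and 46.2 in generation 23 (16.5 to 104). The fitted means spanned a log2 range of 0.30 (adjusted p = 0.00990), and the animals of all generations overlapped. H2-T23 had medians between 7.13 CPM in generation 18 and 7.99 CPM in generation 17, a fitted log2 range of 0.23 (adjusted p = 0.0243), and its call was lost with total count scaling (adjusted p = 0.0734). The median fitted range over all genes tested was 0.11. Within males 0 members passed the test, against 2.76% of all genes tested, and within females 3 passed (H2-K1, Tap1 and Tapbp), against 2.87%. The interaction, which tests whether the sexes differ in this, called no member.

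The other genes of the pathway were counted by role, and their sex counts are to be read beside the 30.6% of all genes tested that were lower in males and the 24.4% that were higher. Of the 10 other class I heavy chain genes in the table, 9 were tested and 5 were lower in males, with a median log2 of -0.15 over the tested genes. The largest difference among them was that of H2-Q10, a heavy chain gene known from liver, which ran from 0.126 to 13.5 CPM in females (median 0.917) and from 0.0412 to 3.05 CPM in males (median 0.618), with a log2 of -0.86 (adjusted p = 1.55e-14). Of the 100-base windows of H2-K1 transcripts 0.957% also occurred in H2-Q10, so the 2 genes can share reads, and windows that the H2-Q genes share with each other were not counted. Of the 4 distant class I-like genes 2 were lower in males and 1 higher: Mr1, which presents vitamin metabolites to MAIT cells, had medians of 18.6 CPM in females and 25.2 CPM in males and a log2 of 0.43 (adjusted p = 4.72e-53).

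Of the 6 genes of the immunoproteasome and its activator, which cut peptides for class I, 4 were lower in males and 2 higher. Psmb9 (median 0.917 CPM in females and 0.782 in males) had a log2 of -0.46 (adjusted p = 1.11e-06), Psmb8 (2.59 and 2.35 CPM) of -0.32 (adjusted p = 5.01e-05), and the activator subunit Psme1 was one of the 2 higher genes. Of the 6 trimming and loading genes 3 were lower (Calr, Canx and Erap1) and Tapbpl, which encodes a second peptide editor, was higher with a log2 of 0.23 (adjusted p = 1.44e-12).

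Of the 12 class I transcription factor genes 5 were lower in males and 1 higher. Nlrc5 had medians of 1.35 CPM in females and 1.09 CPM in males and a log2 of -0.51 (adjusted p = 5.80e-05) and Irf1 (5.36 and 5.25 CPM) of -0.13 (adjusted p = 0.00776). Of the 7 interferon receptor and kinase genes 3 were higher in males and 2 lower, led by Jak2 with a log2 of 0.28 (adjusted p = 4.17e-28). Of the 26 interferon-induced genes outside presentation 4 were higher and 5 lower in males, the largest difference being that of the chemokine gene Cxcl9 (log2 -0.50, adjusted p = 4.74e-04), and 12 of the 26 differed between generations, beside 7.56% of all genes tested. Apart from the other heavy chains, the median log2 differences of these lists lay between -0.092 and -0.011, beside -0.014 for all genes tested.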

How the data were processed

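Gastrocnemius RNA of the Diversity Outbred mice was measured by polyA RNA-seq. The deposited expected counts per gene were made by the authors with EMASE in GBRS, after reads were aligned singly to the transcripts of the 8 founder strains (GRCm38), and genes with under 1 read in at least 50% of the samples were removed. The authors also deposited a matrix of scores, described as variance-stabilised by DESeq2 after regression of batch. Tool versions and strand setting are not given in the sources used here. Wave is not in the labels and was not fitted.

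Expected counts were rounded to whole numbers, scaled by TMM and tested with edgeR 4.0.16 (quasi-likelihood F test, Benjamini-Hochberg adjustment, threshold 0.05) on 18823 genes that passed filterByExpr with a minimum count of 10. Sex was fitted with generation as covariate, and generation with sex. DESeq2 1.42.0 and limma 3.58.1 on the deposited scores were alternatives. Spread between the sexes was tested with limma on absolute deviations from the sex-by-generation median. Correlations used score residuals after sex and generation, with 100000 permutations. Mixtures were fitted with mclust 6.1.1. The fits were tested on simulated data.

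Each animal was a separate sample. Library blocks were runs of 96 consecutive library numbers, and the labels do not say what these numbers mark. Genes were named as members, as the 3 genes most like each member, or as the largest sex difference in each pathway list, and where a count was 5 or fewer some genes were named after their values were seen. The members and lists were chosen with earlier results of these data known. The values of 1 gene of the pathway lists are not reported here.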

Additional observations from a re-analysis of the deposited data

How the results depend on the processing

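Counts are listed where they moved by over 1.5 times, and signs where they turned. The number of members called between the sexes, 4, stayed between 3 and 5 with DESeq2, limma (3), total count scaling (5), both other filters, the block as covariate (3), no label conflicts, no animals far out for Tap1 (3) and without generations 17 (3), 18, 19 (5) or 23 (3). It came to 2 with marker scores as covariates, against 46.2% of all genes, and to 2 with T, NK and B cell scores, against 51.4%. It came to 2 without generation 21, 0, 2, 1 and 0 within generations 17, 18, 19 and 23, and 2, 0, 1, 0 and 0 within library blocks 1 to 5. The shares of all genes were 50.5% to 52% without 1 generation, 20.6% to 25.3% within a generation and 19.7% to 28.6% within a block. The number called between generations, 2 (beside 7.56% of all genes tested), came to 1 with total count scaling (8.88%) and 4 with T, NK and B cell scores (8.87%). It came to 0, 0, 1, 0 and 0 within the blocks (0.287% to 0.935%) and 0 within males (2.76%). The number called for spread, 0 (beside 5.55% of all genes tested), came to 1 with deviations from the group mean (8.26%), where H2-T22 turned to -0.0073. Sex differences (log2) that changed sign were, for H2-K1, 0.067 with T, NK and B cell scores, 0.11 in generation 19 and 0.096 in block 2. For H2-D1 they were 0.049 with limma, 0.077 with marker scores, 0.13 with T, NK and B cell scores, 0.029 without the animals far out for Tap1, 0.022, 0.0032 and 0.032 without generations 17, 18 and 21, 0.27 and 0.027 within generations 19 and 23, and 0.15 and 0.14 in blocks 2 and 4. For H2-T10 they were 0.010 without label conflicts, 0.077 with marker scores, 0.030 and 0.10 without generations 21 and 23, 0.11, 0.096 and 0.36 within generations 17, 18 and 19, and 0.10 and 0.20 in blocks 1 and 3. For H2-T22 they were 0.0033 with the block as covariate, 0.12 with T, NK and B cell scores, 0.011 without the animals far out for Tap1, 0.036 and 0.084 without generations 18 and 19, 0.0084, 0.038 and 0.45 within generations 17, 21 and 23, and 0.044, 0.030 and 0.20 in blocks 1, 2 and 4. For B2m they were 0.022 with marker scores, 0.073 with T, NK and B cell scores, 0.093 in generation 19 and 0.043 in block 2. For Tap1 they were 0.0017 with T, NK and B cell scores, 0.16 in generation 19 and 0.12 in block 2, for H2-T23 0.0052 in block 2, and for Tapbp 0.035 in generation 19. For Tap2 they were -0.028 with total count scaling, -0.025 and -0.0041 without generations 19 and 23, -0.0066, -0.051 and -0.15 within generations 17, 18 and 21, and -0.032, -0.024 and -0.044 in blocks 1, 3 and 5. The correlation of H2-D1 and H2-T22 was -0.022 and -0.077 in blocks 3 and 4, -0.042 with marker scores, -0.016 with T, NK and B cell scores, -0.018 with 10 principal components and -0.023 without the animals far out for Tap1, that of H2-T10 and Tapbp was -0.058 and -0.000044 in blocks 3 and 4, that of H2-K1 and H2-T10 was -0.073 and -0.031 in blocks 2 and 3 and -0.0058 with 10 principal components, and that of H2-T22 and Tap2 was -0.014 and -0.13 in blocks 3 and 4, -0.048 in males, -0.030 with marker scores, -0.023 with 10 principal components and -0.0049 without the animals far out for Tap1. The cause of these changes was not tested, and fits within a generation or block hold fewer animals. The animals far out for Tap1 and the T, NK and B cell scores were chosen after seeing the data.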
